A study of Homo sapiens with 4 samples.

Results

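The genes described here encode the proteasome and the factors that activate, inhibit and assemble it. They were taken by symbol: every gene whose array annotation gives a single symbol beginning with PSMA, PSMB, PSMC, PSMD, PSME, PSMF or PSMG and a digit, plus POMP, with the brightest probe set standing for the gene. No signal threshold chose them, but the group was selected on differences already seen among these 4 arrays, so counts and medians of CC-292 and line differences are given as descriptions. The rule found 47 of the 18239 genes with such an annotation. Their RNA was measured in 2 human mantle cell lymphoma lines, REC-1 and Z138, each profiled once after CC-292 and once as a control. CC-292 is a covalent inhibitor of Bruton tyrosine kinase (BTK), which relays the B-cell receptor signal. The 4 groups were REC-1 with CC-292, REC-1 control, Z138 with CC-292 and Z138 control. The protocol gives 1 uM CC-292 for 48 h. The titles of the CC-292 samples give 1 mM, no time stands in the title of the Z138 control, and the labels do not say what the controls received. Both lines are established cultures grown from lymphoma cells, so each stands for 1 tumour.

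The proteasome degrades proteins tagged with ubiquitin. Its 20S core is a stack of rings of alpha subunits, which form the gate, and beta subunits, of which PSMB5, PSMB6 and PSMB7 carry the protease sites. The 19S cap recognises, unfolds and feeds in the substrate. In cells exposed to interferon, and constitutively in many lymphoid cells, PSMB8, PSMB9 and PSMB10 take the place of PSMB5, PSMB6 and PSMB7 in newly built cores. This immunoproteasome, often capped by the PA28 activator made of PSME1 and PSME2, generates peptides that MHC class I molecules present. Mantle cell lymphoma is treated with proteasome inhibitors, whose main target is the PSMB5 site.

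Values are log2 signals summarised over the probes of a probe set, and a difference of 1 is 2-fold. Genes entered the comparisons if at least 1 array showed them at 4.63, the median signal over all probe sets and arrays, or above, which 10823 genes did. Of the 47 members, 45 were kept. PSMA8, a testis subunit, had log2 signals of 2.81 with CC-292 and 3.05 in the control in REC-1, and 2.91 and 2.95 in the same order in Z138. PSMB11, the thymus subunit, had 3.20 with CC-292 and 3.71 in the control in REC-1, and 3.49 and 3.28 in the same order in Z138. Both therefore lay under the minimum on every array. Of the 45 kept members, 43 belong to the proteasome by role, and 2, PSMC3IP and PSME3IP1, only share the prefix. PSMB10, PSMC5, PSMD7 and PSMD13 had no probe set annotated to them alone and were not analysed here.

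Each group is 1 array, so no difference within a line has an error between cultures. The spread available is that between probe sets of the same gene. Its pooled SD over 6763 genes was 0.32 for the CC-292 difference in REC-1 and 0.26 in Z138. For the line difference it was 0.46 between the CC-292 arrays and 0.49 between the controls. The array medians were between 4.63 and 4.64. Of the B-cell markers, MS4A1 (CD20) had log2 signals between 11.74 and 12.03 on the 4 arrays, and PAX5 between 6.23 and 6.38. CCND1, the cyclin overexpressed in this lymphoma, had between 11.83 and 11.95. SOX11, the other mantle cell lymphoma marker, was lower in REC-1 by 0.73 between the CC-292 arrays and 0.44 between the controls. With CC-292 it was higher by 0.13 in REC-1 and 0.42 in Z138. Other B-cell markers differed between lines: CD79A, CD79B and CD22 were higher in REC-1 by 2.17, 1.89 and 3.14 between the CC-292 arrays and by 1.82, 1.56 and 1.95 between the controls, and CD22 was 2.12-fold lower with CC-292 in Z138. Of 22 markers of other cell types, 8 reached the minimum. The list's median was between 3.78 and 3.97 on the 4 arrays, its summed signal between 8.38 and 8.60 as log2, and its highest gene, CD3G, reached 6.07; all 5 myeloid markers lay below the minimum. In extracts of whole cultures, fewer cells of a kind and less RNA per cell cannot be told apart.

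PSMB8 and PSMB9, which encode inducible protease subunits, were lower in REC-1 than in Z138 with and without CC-292, while the PA28 genes PSME1 and PSME2 had nearly the same level in all 4 cultures. With CC-292, PSMB8 and PSMB9 were higher than in the control in REC-1 and not in Z138. The inducible subunit PSMB10 has only probe sets that also list CTRL. These 3 were higher in REC-1, by 1.23 to 1.25 between the CC-292 arrays and by 1.00 to 1.15 between the controls, and cannot be assigned to either gene. The promoter stretches of the interferon-inducible genes are shown with that of TAP1, the neighbour of PSMB9, and that of the constitutive PSMB5 for comparison. They are RefSeq sequences of GRCh38.p14, read 5′ to 3′ on the gene's strand. Capitals mark the core of the interferon-stimulated response element, GAAA and GAAA with any pair of bases between them, in either orientation. In PSMB9 and PSMB5 they mark a match to the antioxidant or NRF1 element on the reverse strand, searched as TGACNNNGC and TGAGNNNGC, and TAP1 holds both kinds.
PSMB8 (chr6:32844032-32844131, minus strand): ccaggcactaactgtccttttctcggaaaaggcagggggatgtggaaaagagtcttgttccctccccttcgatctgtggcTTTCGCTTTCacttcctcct
PSMB9 (chr6:32853964-32854063, plus strand): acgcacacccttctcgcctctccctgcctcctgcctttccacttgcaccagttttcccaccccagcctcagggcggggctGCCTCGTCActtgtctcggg
TAP1 (chr6:32853759-32853858, minus strand): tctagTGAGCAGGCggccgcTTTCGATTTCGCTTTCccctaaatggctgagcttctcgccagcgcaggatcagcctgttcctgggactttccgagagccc
PSMB10 (chr16:67936852-67936951, minus strand): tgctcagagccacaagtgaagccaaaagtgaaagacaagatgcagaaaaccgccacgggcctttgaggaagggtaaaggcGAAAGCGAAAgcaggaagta
PSME1 (chr14:24136119-24136218, plus strand): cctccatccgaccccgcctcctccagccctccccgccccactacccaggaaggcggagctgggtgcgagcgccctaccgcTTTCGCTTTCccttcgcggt
PSME2 (chr14:24146619-24146718, minus strand): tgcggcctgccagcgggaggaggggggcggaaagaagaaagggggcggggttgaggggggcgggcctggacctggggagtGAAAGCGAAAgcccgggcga
PSMB5 (chr14:23035334-23035433, minus strand): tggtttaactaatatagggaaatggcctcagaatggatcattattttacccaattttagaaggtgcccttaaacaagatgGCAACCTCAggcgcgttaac

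Promoter entries run from 250 bases before to 50 bases after the annotated start. Some genes have several entries, and the counts are of entries and not of genes. This core was found on either strand in 4 of 6 immunoproteasome entries, in 2 of 14 entries of the constitutive 20S genes (PSMA4 and PSMB4), in 0 of 18 of the 19S genes and in 3.57% of all 35116 entries. The match began at -4 from the start in PSMB8, at -21 in PSMB10, at 5 in PSME1 and at -28 in PSME2. PSMB8 has another entry, from a different start, that holds none. The PSMB9 entry holds none. PSMB9 and TAP1, which encodes a chain of the peptide transporter of the endoplasmic reticulum, start 488 bases apart on opposite strands. The TAP1 entry shown holds overlapping matches at -134 and -128, and another TAP1 entry holds none. The antioxidant or NRF1 element, through which proteasome genes are known to respond to proteasome inhibition, was in 3 of 6 immunoproteasome, 7 of 14 constitutive 20S and 8 of 18 entries of the 19S genes, and in 29.1% of all. The 7 include PSMB5 more than once. The looser NF-kB pattern, GGG and CC with any 5 bases between them, was in 2 of 6 immunoproteasome entries and in 58.7% of all. The gamma activated sequence TTCNNNGAA was in 1 of the 6, that of PSMB8, and in 7.66% of all. These are matches of letters only.

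PSMB8, the inducible counterpart of PSMB5, had a log2 signal of 9.15 with CC-292 and 8.78 in the control in REC-1. In Z138 it had 10.15 with CC-292 and 10.48 in the control. Both REC-1 arrays thus lay under both Z138 arrays, and the gap was narrower with CC-292. In REC-1 the CC-292 difference was 0.37 (1.29-fold), and 10.2% of the kept genes were as high or higher. In Z138 it was -0.33 (1.26-fold lower), and 8.67% were as low or lower. A second probe set gave 0.63 in REC-1 and -0.19 in Z138, so the direction in each line was shared by both.

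PSMB9, the inducible counterpart of PSMB6, had 8.45 with CC-292 and 8.13 in the control in REC-1, and 9.43 with CC-292 and 9.44 in the control in Z138. Its CC-292 difference was 0.32 in REC-1 (1.25-fold) and -0.0046 in Z138. The REC-1 value rests on 1 probe set, because the next brightest one had 6.99 on both REC-1 arrays, a difference of 0.00. Between lines the 2 probe sets differed little, with -1.25 and -0.99 between the CC-292 arrays and -1.27 and -1.31 between the controls, the second probe set first.

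PSME1, the PA28 alpha subunit, had 11.03 with CC-292 and 10.89 in the control in REC-1, and 11.06 with CC-292 and 11.09 in the control in Z138. Its 3 probe sets gave a mean CC-292 difference of 0.11 (SD 0.15) in REC-1. PSME2, the PA28 beta subunit, had 10.16 with CC-292 and 10.32 in the control in REC-1, and 10.13 with CC-292 and 10.19 in the control in Z138. The 4 arrays spanned 0.20 or less for either gene, under the SD between probe sets, as the plot of levels shows.

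**Figure D1:**
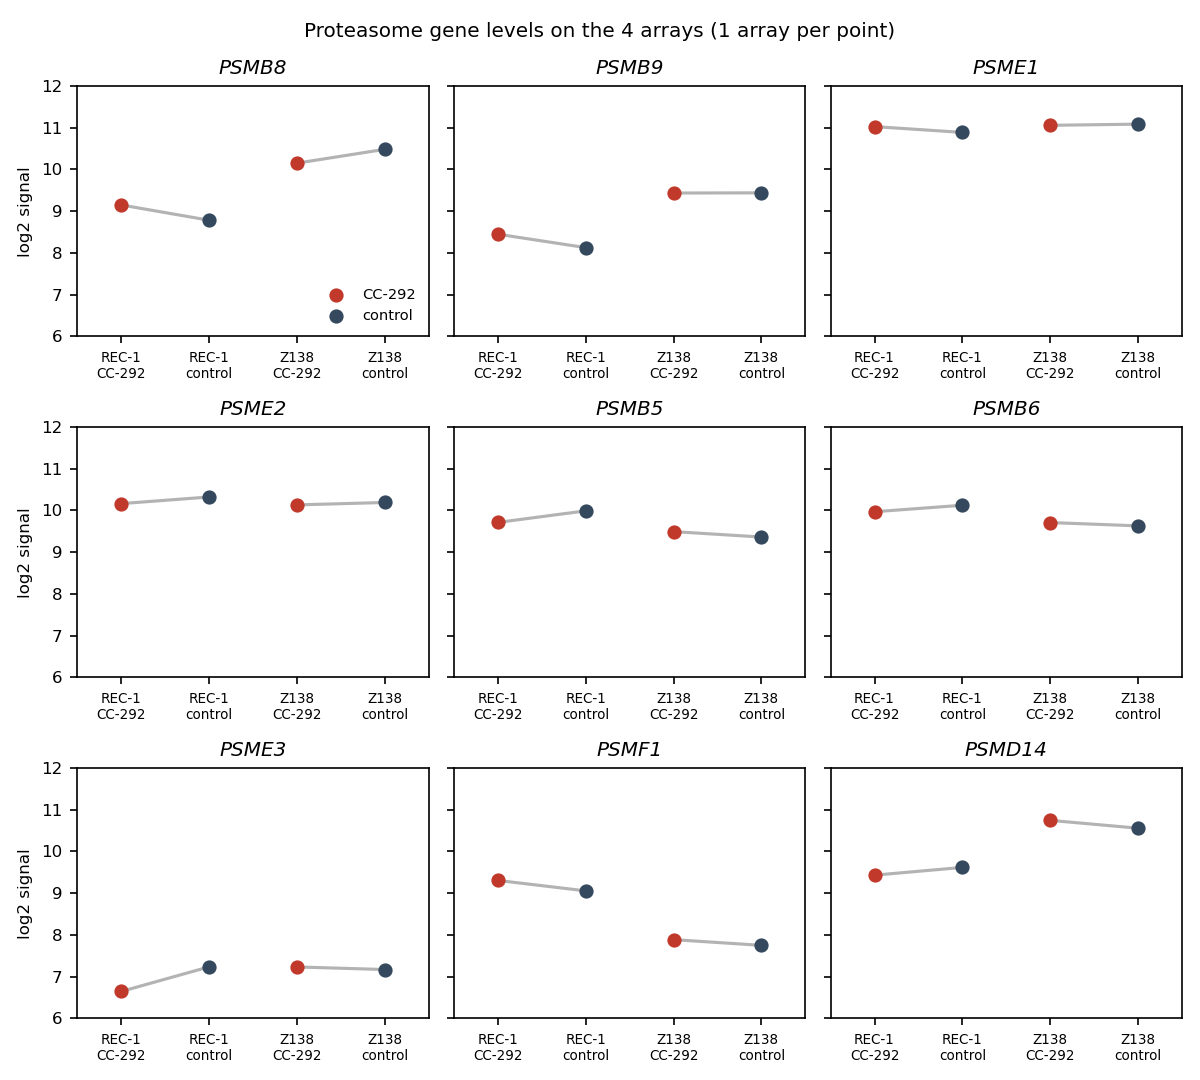
Log2 signal of 9 proteasome genes on the 4 arrays, 1 point per array, with CC-292 (red) left of control (dark) in each line; the vertical axis is log2 signal of the gene's brightest probe set. PSMB8 and PSMB9 sat lower on both REC-1 arrays than on both Z138 arrays, PSMF1 sat higher, and PSME1 and PSME2 were nearly level.

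The constitutive protease subunits had CC-292 differences of the opposite sign in REC-1. PSMB5, the chymotrypsin-like subunit, had 9.71 with CC-292 and 9.99 in the control in REC-1, and 9.49 with CC-292 and 9.36 in the control in Z138. Its CC-292 difference was -0.28 in REC-1 and 0.13 in Z138, and all 5 of its probe sets were negative in REC-1 (mean -0.19, SD 0.10). PSMB6, the caspase-like subunit, had 9.97 with CC-292 and 10.12 in the control in REC-1, and 9.71 with CC-292 and 9.63 in the control in Z138. PSMB7, the trypsin-like subunit, had 11.27 with CC-292 and 11.35 in the control in REC-1, and 11.22 with CC-292 and 11.23 in the control in Z138, which makes it the most even of the 3.

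Set against its constitutive counterpart, the CC-292 difference of PSMB8 exceeded that of PSMB5 by 0.64 in REC-1 and fell short of it in Z138, with -0.46. For PSMB9 minus PSMB6 these values were 0.48 in REC-1 and -0.08 in Z138. The line difference of PSMB8 minus that of PSMB5 was -1.22 between the CC-292 arrays and -2.33 between the controls, and for PSMB9 minus PSMB6 it was -1.25 and -1.81 in that order. PSMB5 itself differed by 0.22 between the CC-292 arrays and 0.63 between the controls, and PSMB6 by 0.26 and 0.49 in that order, so PSMB8 and PSMB9 had line differences of the opposite sign to their counterparts in both pairs. Over the 4 measured immunoproteasome genes, the median CC-292 difference was 0.23 in REC-1 (3 of 4 above 0, against 42.1% of all kept genes) and -0.04 in Z138 (0 of 4 above 0, against 51.9%). With 4 genes these medians describe only the genes named.

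The constitutive 20S genes were slightly and evenly lower with CC-292 in REC-1. All 14 had a difference below 0 there, against 57.8% of all kept genes. Their median was -0.17 (1.12-fold lower), against -0.05 over all kept genes and -0.06 over the 7707 genes that reached the 70th percentile of signal. They ranged from -0.28 (PSMB5) to -0.08 (PSMB7) and had an SD among genes of 0.05, whereas the SD over all kept genes was 0.35. The 9 of them with several probe sets above the minimum all had a negative mean over those probe sets. No single gene of the 14 passed the SD between probe sets, so the pattern lies in the shared sign and not in the size of any one difference. In Z138, 10 of the 14 had a difference above 0, against 51.9% of all kept genes, with a median of 0.07 against 0.01. PSMB2, a beta subunit without a protease site, was the highest there at 0.23 (log2 signal 11.07 with CC-292 and 10.84 in the control), and was at -0.20 in REC-1 (11.12 and 11.31 in that order). PSMA1, an alpha ring subunit, was the lowest in Z138 at -0.06 (11.10 and 11.16). In REC-1 it was at -0.23 on its brightest probe set (11.17 and 11.40) and at 0.16 on the other.

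**Figure D2:**
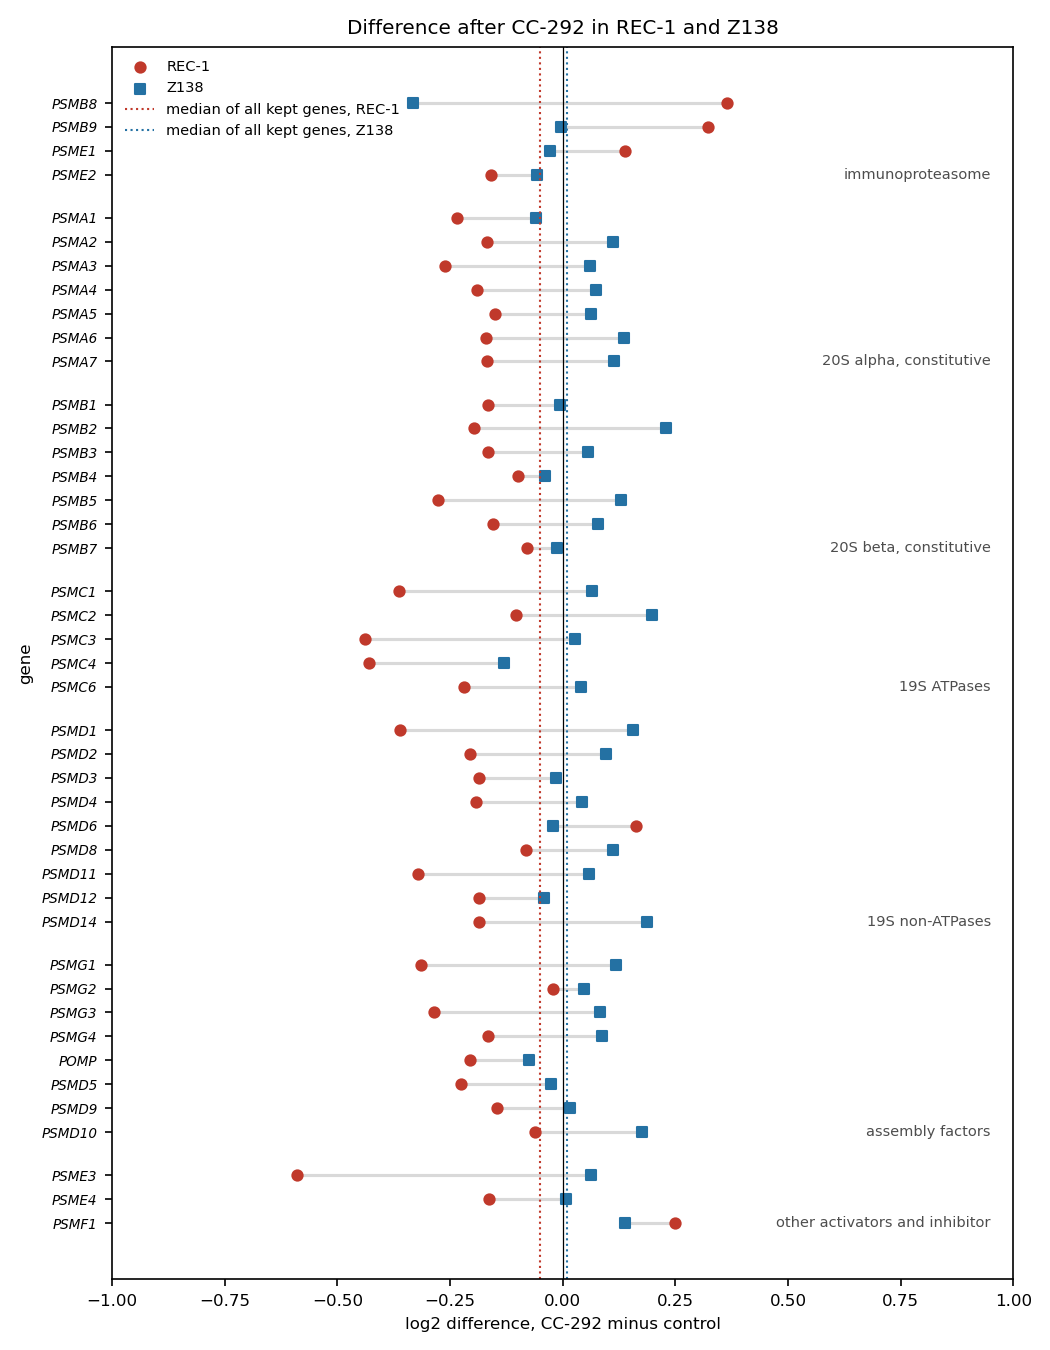
CC-292 minus control difference (log2, horizontal axis) of the 43 kept proteasome genes by role, with REC-1 as red circles and Z138 as blue squares, 1 pair of arrays per line; dotted lines give the medians of all kept genes. All 14 constitutive 20S genes lie left of 0 in REC-1, while PSMB8, PSMB9, PSME1, PSMD6 and PSMF1 lie right of it.

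The 19S genes showed the same small shift. In REC-1, 13 of the 14 measured genes had a difference below 0, against 57.8% of all kept genes, with a median of -0.20. In Z138, 10 of 14 had one above 0, against 51.9%, with a median of 0.05. The 5 measured ATPases, which unfold the substrate, had a median of -0.36 in REC-1, and the 9 other 19S genes one of -0.19. PSMC3, an ATPase, was the lowest at -0.44, with log2 signals of 9.62 with CC-292 and 10.05 in the control in REC-1, and 9.80 and 9.78 in the same order in Z138. PSMC4, also an ATPase, was at -0.43 in REC-1 (9.31 with CC-292 and 9.74 in the control) and at -0.13 in Z138 (9.05 and 9.18). Its other probe set was at -0.43 in REC-1 and at 0.12 in Z138, so its direction in Z138 is not settled. PSMD6, a lid subunit, was the exception on brightest probe sets at 0.16 in REC-1, with 10.19 with CC-292 and 10.03 in the control. Its other probe set was at -0.34, so its direction is not settled. Of the 11 measured 19S genes with several probe sets, 9 had a negative mean over them in REC-1, and PSMC2 and PSMD8 had means of 0.08 and 0.10.

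On brightest probe sets, the assembly factors had the signs of the 20S and 19S genes. All 8 were below 0 in REC-1, against 57.8% of all kept genes. They ranged from -0.31 (PSMG1) to -0.02 (PSMG2), with a median of -0.19. In Z138, 6 of 8 were above 0, against 51.9%, with a median of 0.07. Of the 5 with several probe sets, 4 had a negative mean over them in REC-1 and 4 a positive one in Z138. PSMD9 was at -0.15 in REC-1 on its brightest probe set and at 0.0087 as a mean. POMP, the maturation factor of the core, had 11.45 with CC-292 and 11.65 in the control in REC-1, and 11.67 with CC-292 and 11.74 in the control in Z138. Its 3 probe sets did not share a sign in either line, with means of -0.0019 in REC-1 and 0.06 in Z138. PSMD10, known as gankyrin and a chaperone of the 19S base, differed by -0.06 in REC-1, with 9.01 with CC-292 and 9.07 in the control, and by 0.18 in Z138, with 8.64 and 8.46 in the same order.

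Among the other activators, PSME3 (PA28 gamma), which caps cores in the nucleus, had the largest CC-292 difference of the 43 genes. It had 6.64 with CC-292 and 7.23 in the control in REC-1, and 7.23 with CC-292 and 7.17 in the control in Z138. The REC-1 difference of -0.59 is 1.51-fold lower, and 4.60% of the kept genes were as low or lower. Its 3 probe sets gave -0.59, -0.42 and -0.19, all of 1 sign. PSME4 (PA200), an activator without ATPase activity, had 9.58 with CC-292 and 9.75 in the control in REC-1, and 9.04 on both Z138 arrays. On brightest probe sets, PSMF1 (PI31), known as an inhibitor of the core in vitro, was the only gene of the 43 above 0 in both lines. It was at 0.25 in REC-1 and 0.14 in Z138. Its 6 probe sets did not share a sign in REC-1 (mean 0.05, SD 0.29). In Z138 only 1 of the 6 was above 0 (mean -0.06, SD 0.11), so its direction is not settled in either line.

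Across the 43 genes, 38 were below 0 in REC-1 (median -0.17), against 57.8% of all kept genes. In Z138, 29 were above 0 (median 0.06), against 51.9%. Below 0 in REC-1 and above 0 in Z138 together were 28 of them, against 31.4% of all kept genes. The opposite combination was found for 4, namely PSMB8, PSMB9, PSME1 and PSMD6, a smaller share than the 2338 of 10823 kept genes. Of the 4, only PSMB8 passed the SD between probe sets in Z138, and PSMB9, PSME1 and PSMD6 were at -0.0046, -0.03 and -0.02 there. On the next brightest probe set in REC-1 these last genes were at 0.00, -0.05 and -0.34 in the same order. The REC-1 and Z138 comparisons share no array. The sizes were small: 0 of 45 kept members reached 2-fold in REC-1, against 1.6% of all kept genes, and 0 of 45 in Z138, against 0.564%. At 1.5-fold there was 1 in REC-1, PSME3, against 9.05%, and 0 in Z138, against 4.7%. The difference between the 3′ and 5′ probe sets of ACTB, which reads RNA integrity and labelling, was 0.53 with CC-292 and 0.77 in the control in REC-1, and 1.11 and 1.12 in the same order in Z138. The same difference for GAPDH was -0.31 with CC-292 and -0.32 in the control in REC-1, and -0.24 and -0.28 in that order in Z138. The ACTB value was thus lower with CC-292 in REC-1, where the proteasome genes were lower too, and the GAPDH value moved by 0.0067. The spiked hybridization controls, which no culture supplies, had a median CC-292 difference of -0.07 in REC-1 and 0.09 in Z138. Those signs are the signs of the medians of the 43 genes. The parts of RNA quality, labelling and hybridization in the shared shift were not tested.

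An additive model of agent and line was fitted to all 4 arrays with limma, in which the error is the disagreement of the lines about CC-292 (1 residual degree of freedom, moderated over genes). Its average CC-292 effect called 0 of 45 members and 0% of all kept genes after Benjamini-Hochberg adjustment. At an unadjusted p under 0.05 it named 472 genes (4.36%), of which 0 were members. In simulated data of the same layout it found 22 of 100 genes with a true log2 change of 1, and 98 of 100 with one of 2.

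Line differences of the members reached 2-fold where CC-292 differences did not. Between the CC-292 arrays, 4 of 45 members reached it, against 25.3% of all kept genes: PSMF1 was higher in REC-1, and PSMB8, PSMD14 and PSMC3IP were lower. Between the controls 4 did, against 24.3%, with PSMF1 higher and PSMB8, PSMB9 and PSMC3IP lower. At 1.5-fold there were 11 between the CC-292 arrays, against 44.4%, and 10 between the controls, against 43.9%. In the additive model the average line effect was called for 11 of 45 members at an adjusted p under 0.05, against 44.7% of all kept genes. The count rests on how limma models the spread: with an intensity trend it was 27 of 45, against 5734 of the 10823 kept genes. The sign of the line difference was shared by both pairs of arrays in 36 of the 43 genes, against 82.8% of all kept genes.

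PSMB8 averaged 1.35 lower in REC-1 (logFC -1.35, SE 0.22, limma adjusted p 0.00512). PSMB9 had a logFC of -1.15 (SE 0.17, limma adjusted p 0.00401). Between the CC-292 arrays PSMB9 was 1.98-fold lower in REC-1, just short of the 2-fold mark that PSMB8 just reached, and between the controls they were 2.48-fold and 3.25-fold lower, PSMB9 first. PSME1 (logFC -0.11, limma adjusted p 0.598) and PSME2 (0.08, limma adjusted p 0.706) were not called, with SEs of 0.16 each. PSMB5 and PSMB6 leaned to REC-1 with logFC 0.42 and 0.38, and neither passed (limma adjusted p 0.107 and 0.115). With an intensity trend both were called (limma adjusted p 0.00599 and 0.00963). PSMB5 also gained a call as the mean of its probe sets (limma adjusted p 0.0397), so neither result is firm.

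PSMF1 was the member with the clearest excess in REC-1. It had 9.31 with CC-292 and 9.05 in the control in REC-1, against 7.89 with CC-292 and 7.75 in the control in Z138. The average line effect was 1.36 (SE 0.16, limma adjusted p 0.00179), and all 6 probe sets were higher in REC-1, between the CC-292 arrays (SD 0.15) and between the controls (mean 1.39, SD 0.23). PSMD14, the deubiquitinase of the 19S lid, showed the reverse. It had 9.43 with CC-292 and 9.62 in the control in REC-1, against 10.74 with CC-292 and 10.56 in the control in Z138, an average line effect of -1.13 (SE 0.17, limma adjusted p 0.00468) seen on both of its probe sets.

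**Figure D3:**
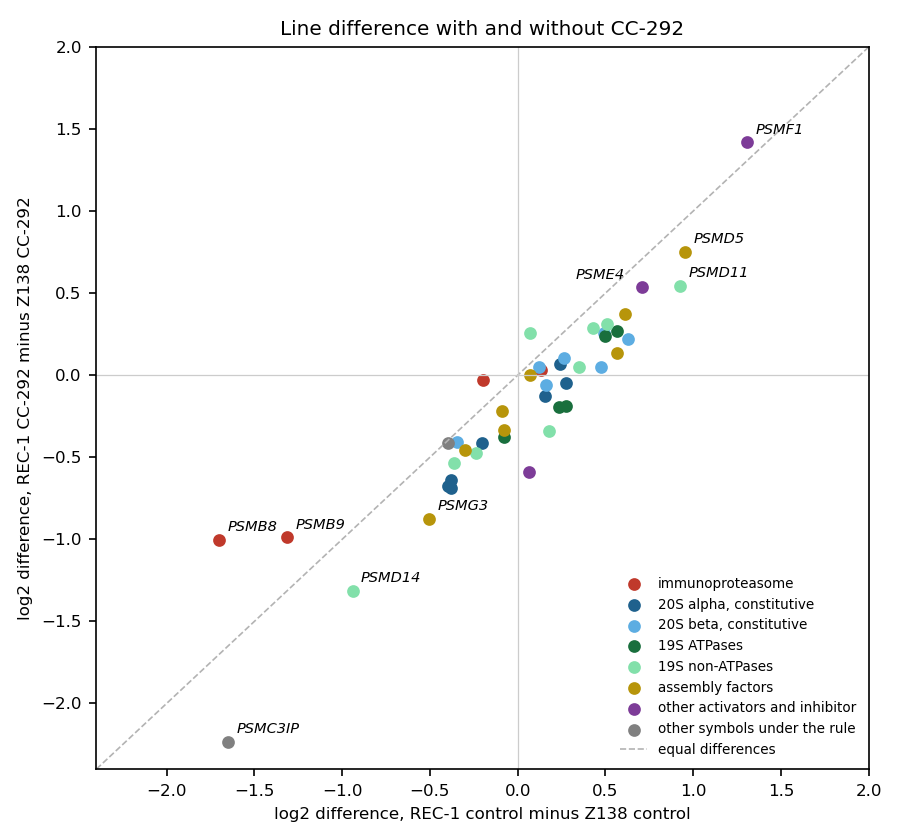
REC-1 minus Z138 difference (log2) of the 45 kept members, between the CC-292 arrays on the vertical axis and between the controls on the horizontal axis, coloured by role, 1 array per group; the dashed line marks equal differences. PSMF1 lies at the top right, PSMB8, PSMB9, PSMD14 and PSMC3IP at the lower left, and of these 4 PSMB8 and PSMB9 lie above the dashed line.

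Other 19S and assembly genes were called in both directions. PSMD11, a lid subunit, had 10.08 with CC-292 and 10.40 in the control in REC-1, and 9.53 and 9.47 in the same order in Z138 (logFC 0.74, limma adjusted p 0.0201). PSMD5, a chaperone of the 19S base, had 8.07 with CC-292 and 8.29 in the control in REC-1, and 7.31 and 7.34 in the same order in Z138 (logFC 0.85, limma adjusted p 0.0092). PSME4 was higher in REC-1 (logFC 0.62, limma adjusted p 0.0254), but as the mean of its 6 probe sets it lost the call (adjusted p 0.395). PSMG3, a chaperone of the core, was lower in REC-1, with 6.72 with CC-292 and 7.01 in the control against 7.60 and 7.51 in the same order in Z138 (logFC -0.69, limma adjusted p 0.0244).

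Within the alpha ring, PSMA2 and PSMA6 were lower in REC-1, with logFC -0.54 each (limma adjusted p 0.0459 and 0.0486), and PSMA4 just missed the threshold (logFC -0.51, limma adjusted p 0.0534). None of these calls is firm. PSMA2 lost its call with no brightness filter (limma adjusted p 0.0817) and after quantile normalization (0.0524), and PSMA6 lost its call under both (0.0853 and 0.0569) and after cyclic loess (0.0519). PSMA4 gained one under 4 settings, with limma adjusted p between 0.000298 and 0.0303. PSMA2 had 10.80 with CC-292 and 10.97 in the control in REC-1, and 11.48 and 11.37 in the same order in Z138. PSMA6 had 10.77 with CC-292 and 10.94 in the control in REC-1, and 11.46 and 11.32 in that order in Z138. PSMA4 had 9.91 with CC-292 and 10.10 in the control in REC-1, and 10.55 and 10.48 in that order in Z138. PSMC2 is unsettled: its brightest probe set differed by -0.08 between the controls (10.00 in REC-1 and 10.07 in Z138), whereas its next brightest differed by -1.73. The spiked hybridization controls, which no culture supplies, had a median line difference of 0.17 between the CC-292 arrays and 0.33 between the controls, and the part of labelling and hybridization in line differences of that size was not tested.

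PSMC3IP, which shares only the prefix and encodes the recombination factor HOP2, had the largest average line effect of the members, although PSMB8 differed more between the controls. It had 6.56 with CC-292 and 6.97 in the control in REC-1, against 8.80 with CC-292 and 8.62 in the control in Z138 (logFC -1.94, SE 0.20, limma adjusted p 0.00122), on a single probe set. It stands in no class median.

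Genes that work with the proteasome were described from 3 further lists. Of 26 measured proteasome-associated and ubiquitin genes, 21 were below 0 with CC-292 in REC-1 (median -0.11), against 57.8% of all kept genes. In Z138, 13 were below 0 and 13 above, where 51.9% of all kept genes were above 0. In REC-1 the lowest, named after their values were seen, were DDI2 at -0.49, ADRM1 at -0.41, UCHL5 and NFE2L2 at -0.35, and NFE2L1 at -0.33. DDI2 is the protease that activates NRF1, ADRM1 the ubiquitin receptor of the 19S cap, and NFE2L1 encodes NRF1 itself. DDI2 was also at -0.26 in Z138, where both arrays lay under the minimum (4.19 with CC-292 and 4.45 in the control). Above 0 in REC-1 were 5 of the 26, among them NGLY1 at 0.07. Between lines 6 of the 26 were called higher in REC-1, against 21.6% of all kept genes, and 6 lower, against 23.1%. DDI2 is among those called higher and was kept only through REC-1, so the filter fixed its direction. TXNL1, a thioredoxin that binds the 19S cap, was higher by 1.42 between the CC-292 arrays and 1.43 between the controls (limma adjusted p 0.00148). NFE2L2, which encodes NRF2, was lower, with -1.42 and -1.04 in the same order (limma adjusted p 0.00355).

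Of 14 measured genes of MHC class I peptide supply, 10 were called lower in REC-1, against 23.1% of all kept genes, and 1 higher (TAPBP, the peptide loading factor tapasin), against 21.6%. TAP1, the neighbour of PSMB9, had 7.50 with CC-292 and 7.26 in the control in REC-1, against 8.69 with CC-292 and 8.70 in the control in Z138 (limma adjusted p 0.00235). NLRC5, the transactivator of MHC class I genes and of PSMB9, had 6.36 with CC-292 and 5.65 in the control in REC-1, and 7.50 with CC-292 and 7.87 in the control in Z138, so its CC-292 differences of 0.71 and -0.38 had the signs of those of PSMB8. Over the 14, 6 were above 0 with CC-292 in REC-1 (median -0.04), against 42.1% of all kept genes. The list as a whole therefore did not share that direction.

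**Figure D4:**
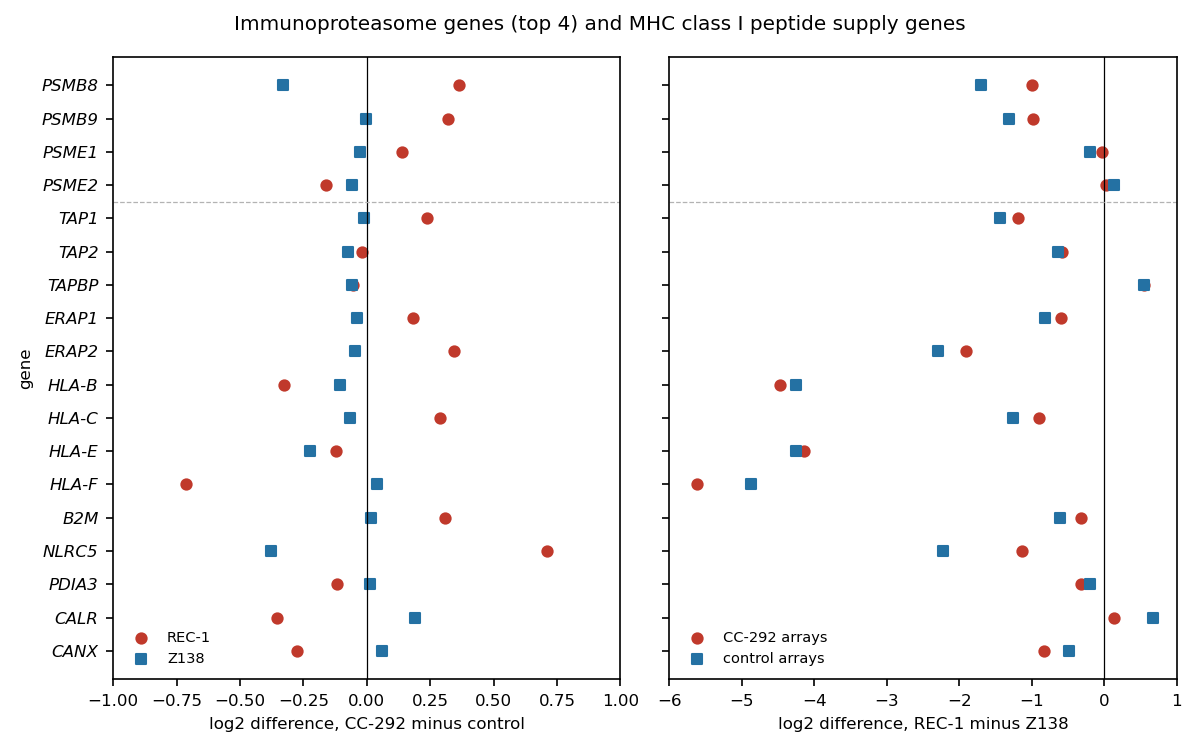
Log2 differences of the 4 measured immunoproteasome genes (above the dashed line) and 14 MHC class I supply genes: CC-292 minus control in REC-1 (red) and Z138 (blue) on the left, and REC-1 minus Z138 between CC-292 arrays (red) and controls (blue) on the right, 1 array per group and different scales. PSMB8, PSMB9, TAP1 and NLRC5 were lower in REC-1 in both pairs of arrays, and PSME1 and PSME2 lay near 0.

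Of 14 measured interferon receptor, kinase and transcription factor genes, 4 were called higher in REC-1, against 21.6% of all kept genes, and 1 lower, against 23.1%, so the count of higher genes is near the background. Among the 4, named after their values were seen, were IRF8, a B-cell transcription factor, higher in REC-1 by 2.95 between the CC-292 arrays and 3.19 between the controls, and IFNGR1, a chain of the interferon gamma receptor, higher by 3.36 and 3.11 in that order. IRF9, a subunit of the factor that binds the element shown above, had 8.39 with CC-292 and 7.90 in the control in REC-1, and 6.86 on both Z138 arrays, so it was higher in the line in which PSMB8 and PSMB9 were lower (limma adjusted p 0.00372). IRF1, which activates PSMB9 through the stretch it shares with TAP1, had 7.81 with CC-292 and 7.64 in the control in REC-1, and 8.08 with CC-292 and 8.09 in the control in Z138, and was not called (limma adjusted p 0.117).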

How the data were processed

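RNA from 4 cultures was hybridised to 1 Affymetrix array each, from 150 ng of total RNA per the labels' protocols. The deposited values are log2 signals of 49386 probe sets, made by the authors with RMA in Affymetrix Expression Console 1.1 per the submitters' processing notes. They were used as deposited. The array platform's annotation gave 1 symbol to 45259 probe sets, several to 1327 and none to 2800, and only the first were used. All 47 members matched RefSeq by Entrez identifier. Each gene was read from its brightest probe set over the 4 arrays, and kept if its highest value reached 4.63.

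Differences between 2 arrays have no test. An additive model of agent and line was fitted over all 10823 kept genes with limma 3.58.1 (R 4.3.3) and Benjamini-Hochberg adjustment, in which arrays of a line under different agents serve in place of replicates. It was tested on simulated data. Named genes were the immunoproteasome genes, their constitutive counterparts, PSMF1, POMP, PSMA8 and PSMB11, the 4 highest and 4 lowest members of each comparison, and members at least 1.5-fold different. The members and the lists were chosen with earlier results of these data known. Alternatives covered the brightness minimum, the scaling between arrays, the choice of probe set, the fold threshold and the model. With 1 array per group, the number of arrays limits the precision. The labels do not say whether the cultures of a line were grown together.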

Additional observations from a re-analysis of the deposited data

Results flagged for a closer look

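CC-292 differences had opposite signs in the lines for several groups. The median CC-292 difference of the 4 measured immunoproteasome genes in REC-1, minus their median in Z138, was 0.27. For PSMB8 alone the CC-292 difference in REC-1 minus that in Z138 was 0.70. The same subtraction of class medians gave -0.24 for the 14 constitutive 20S genes and -0.25 for the 14 measured 19S genes. Each rests on 1 array per group, and the difference between lines was not tested.

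PSMB10, the inducible counterpart of PSMB7, was read by 3 probe sets whose annotation also lists CTRL, so their signal cannot be assigned to either gene. Between the controls they differed by 1.04, 1.15 and 1.00 on the log2 scale, REC-1 minus Z138, a direction opposite to that of PSMB8 and PSMB9.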

How the results depend on the processing

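No paired analysis was possible because the labels carry no replicate numbers, other than the additive model itself, which sets CC-292 against control within each line. Leaving out an array leaves no residual degree of freedom. Over changed brightness minima, scalings and probe-set choices, the median differences of the immunoproteasome, constitutive 20S and 19S genes kept their direction in every comparison except the constitutive 20S median between the CC-292 arrays. That median was -0.05 as deposited, 0.037 after quantile normalization and 0.015 after cyclic loess, values near 0 whose direction is not settled. In REC-1 the CC-292 median of the constitutive 20S genes ranged from -0.17 to -0.11 and that of the immunoproteasome genes from 0.17 to 0.29. At a 1.5-fold threshold the number of members different was 1 in REC-1, 11 between the CC-292 arrays and 10 between the controls. At 3-fold it was 1 between the CC-292 arrays and 2 between the controls. With an intensity trend in limma the line effect was called for 27 members and 5734 genes, against 11 and 4840. PSMB8, PSMB9, PSMC3IP, PSMD5, PSMD11, PSMD14, PSMF1 and PSMG3 were called under all 9 settings, PSME4 under 8, PSMA2 under 7 and PSMA6 under 6. Of 808 differences of named genes recomputed, 795 moved by less than the SD between probe sets and 13 by more, most of them with the next brightest probe set. Signal over background left 2 members, PSMA8 and PSMB11, without a usable level.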
